A study of Homo sapiens with 19 samples.

Results

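The epithelial-mesenchymal transition (EMT) was followed within cells that lacked much of the RNA-binding protein AKAP8. Libraries were chosen by label, as the RNA-seq libraries of AKAP8 knockdown (KD) cells in the epithelial state (EPI, 3 libraries) and in the mesenchymal state (MES, 2 libraries). They are 5 of the 11 RNA-seq libraries and of the 19 samples in the series. Every one of the 5 carried an AKAP8 shRNA, and no control library entered the contrast. The cells were HMLE/Twist-ER, TERT-immortalized human mammary epithelial cells that express the transcription factor Twist fused to the estrogen receptor. EPI cells were untreated (0 nM tamoxifen). MES cells had been kept in 20 nM tamoxifen, with splitting every other day, until they looked mesenchymal. The shRNA was delivered by lentivirus and expressed stably, and the labels do not say which of the study's shRNAs a library carries or whether replicates were separate cultures. The 6 libraries with a non-specific shRNA (3 EPI and 3 MES) are used below only to set the change in control cells beside that in KD cells.

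EMT changes which exons epithelial cells keep in their mRNAs. The epithelial splicing regulators ESRP1 and ESRP2 maintain one set of exon choices, and they are lost as cells become mesenchymal, while RBFOX2, QKI and hnRNPM act on overlapping sets of exons. AKAP8 is a nuclear scaffold protein that binds RNA and interacts with hnRNPM.

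The target and the cell states were checked from junction reads, summed over the skipped-exon events of each gene and scaled between libraries. AKAP8 had 121, 98.8 and 125 scaled reads in the EPI KD libraries and 108 and 122 in the MES KD libraries. The control libraries held 244, 310 and 245 in EPI and 382, 196 and 248 in MES. Thus every KD library lay below every control library, at 43.1% of the control mean in EPI and 41.8% in MES. Within KD cells the AKAP8 level did not pass the test between states (log2 fold change 0.0014 ± 0.30 SE, adjusted p = 0.998). Junction reads of the skipped-exon tables ran from 31258177 to 40852217 per library. The second EPI library stood furthest from the others of its state, with correlations of PSI of 0.954 and 0.964 against 0.971 between the other two EPI libraries. The MES pair correlated at 0.967, and EPI with MES libraries at 0.905 to 0.942.

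The KD cells had passed from an epithelial to a mesenchymal expression profile. E-cadherin (CDH1), the adhesion protein of epithelial junctions, had 4183, 4338 and 3482 scaled junction reads in EPI and 82.5 and 121 in MES. The states did not overlap, and the log2 fold change was -5.30 ± 0.25 (SE; adjusted p = 8.8e-06). Of 9044 genes with enough reads, 949 changed by more than 1 on the log2 scale, which is 10.5% of those tested. Of these 408 were higher in MES (4.51% of genes) and 541 were lower (5.98%). With scaling by total junction reads the median of all genes moved from 0.01 to -0.20 on the log2 scale, and 242 of 888 calls were then higher in MES. Of 21 epithelial marker genes, 11 had a value and all 11 fell, with a median log2 fold change of -3.83 (-4.04 with total scaling). EPCAM, 3 claudins and 3 keratins were among the 10 without a value. The summed level of the 11 was 174180 to 303921 scaled reads in EPI and 27295 and 65902 in MES. Of 21 mesenchymal markers, 13 had a value and all 13 rose, with a median of 5.26 (5.05 with total scaling). Among them, vimentin (VIM) rose by 2.19 and collagen type I alpha 1 (COL1A1) by 7.58 on the log2 scale. N-cadherin (CDH2), SNAI2 and TWIST1 had no value.

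**Figure D1:**
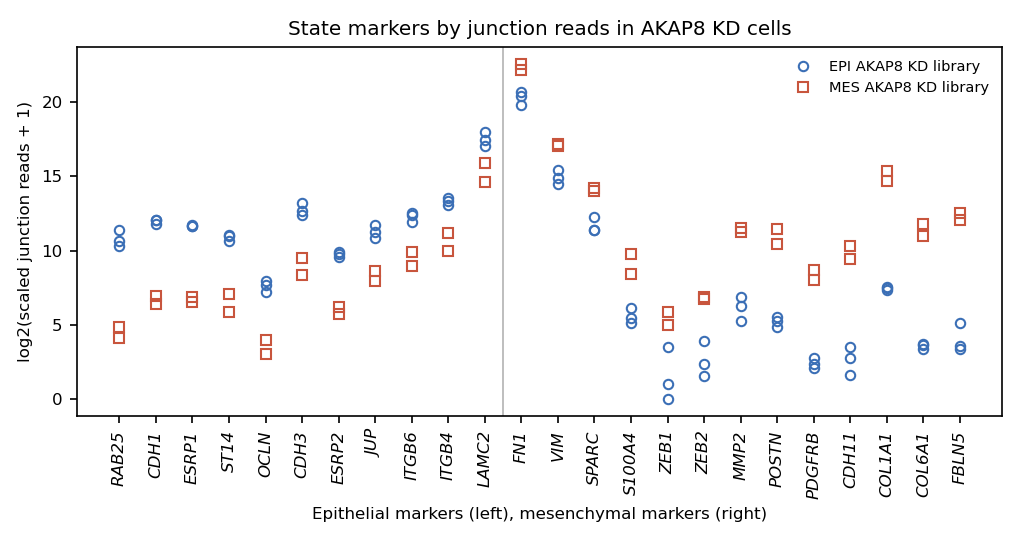
Scaled junction reads of marker genes, as log2 of the value plus 1, for each AKAP8 KD library. Circles are the 3 EPI libraries and squares the 2 MES libraries. The 11 epithelial markers on the left lie higher in every EPI library than in either MES library, and the 13 mesenchymal markers on the right lie lower.

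The RNA-binding proteins that control epithelial splicing moved with the state. ESRP1 had 3158, 3191 and 3417 scaled reads in EPI and 93.1 and 116 in MES, a log2 change of -4.96 ± 0.22 (SE). ESRP2 had 944, 862 and 750 in EPI and 50.9 and 73.6 in MES, a log2 change of -3.77 ± 0.27. RBM47, another splicing factor of epithelial cells, changed by -3.59 ± 0.68 with 48.5 to 56.8 scaled reads in EPI and 0.96 and 9.07 in MES. Other splicing factors did not pass the test, though in HNRNPM, QKI and RBFOX2 both MES libraries lay above every EPI library. In PTBP1 and MBNL1 the states overlapped. The log2 changes were 0.48 for HNRNPM (adjusted p = 0.224), 0.58 for QKI (0.181), 0.37 for RBFOX2 (0.289), 0.26 for PTBP1 (0.497) and 0.21 for MBNL1 (0.713). The values are sums over junctions, so splicing and transcript level cannot be told apart in them.

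Which exons changed between the states within KD cells? For each event PSI (percent spliced in, the share of transcripts that include the exon) was computed per library, and ∆PSI is the MES mean minus the EPI mean in percentage points. An event was called at an adjusted p below 0.05 and a ∆PSI of at least 10 points. Of 31472 skipped exon (SE) events tested, 423 were called (1.34%), 198 with more inclusion in MES and 225 with less. They covered 404 distinct exons in 353 genes. The groups did not overlap in 412 of the 423, against 21.2% of all SE events tested. The median size was 24.5 points, 141 events moved by at least 30 points and 36 by at least 50. Included exons went from a median PSI of 31.6 in EPI to 67.8 in MES, and skipped exons from 77.0 to 39.3. The event just inside the size threshold was PFDN5 (10.005 points) and the one just outside NMRK1 (-9.97). The calls depended on the test. On logit PSI, limma called 0 SE events, with 750 at an unadjusted p below 0.05 beside the size threshold and a lowest adjusted p of 0.0923. Without the first MES library 203 events were called, without the second 276, and without the third EPI library 255.

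The largest gains turned the minor form in EPI cells into the major form in MES cells. In ARHGEF11, a GTPase exchange factor that acts on the actin cytoskeleton at junctions, the exon at chr1:156908210-156908305 (GRCh37, 96 nt, coding) had a PSI of 0, 0 and 2.37 in EPI and 88.0 and 89.6 in MES (∆PSI 88.0, adjusted p = 1.91e-21). The exon was thus almost absent from one state and the rule in the other. MAGI1, a scaffold of tight junctions, included its 36-nt coding exon at chr3:65433697-65433732 at 12.5, 16.2 and 25.4 in EPI and 92.5 and 91.2 in MES (∆PSI 73.8). ARHGAP17, a GTPase-activating protein at junctions, gave 20.3, 0.52 and 3.17 for the exon at chr16:24950685-24950918 and 72.0 and 79.0 in MES (∆PSI 67.5). Its first EPI library lay well above the other two, yet far below both MES libraries. In OSBPL3, an oxysterol-binding protein, the exon at chr7:24902819-24902911 rose from 17.5, 10.9 and 12.8 to 73.7 and 87.5 (∆PSI 66.9).

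Other exons that were gained lay in signaling and trafficking genes. The exon of MYO9A, an unconventional myosin, at chr15:72244043-72244237 had 24.8, 19.4 and 23.6 in EPI and 82.4 and 96.4 in MES (∆PSI 66.8). This call was lost without the second MES library (adjusted p = 0.0799). The Rab GTPase-activating protein TBC1D13 included its 41-nt exon at chr9:131553014-131553054 at 20.0, 25.7 and 27.8 against 85.5 and 88.2 (∆PSI 62.3). The 48-nt exon of MAP2K7, a kinase upstream of JNK, at chr19:7970693-7970740 gave 17.9, 33.7 and 29.6 against 85.7 and 77.8 (∆PSI 54.7). SPAG9, a JNK scaffold that binds motor proteins, gave 12.3, 16.6 and 6.41 against 71.9 and 60.9 for the 39-nt exon at chr17:49053224-49053262 (∆PSI 54.6). In none of these did a MES library overlap an EPI library, which the rule for naming them required.

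The largest losses began with CD44, a hyaluronan receptor whose variable exons are a classic readout of EMT. Its exon v10 at chr11:35232793-35232996 (204 nt, coding) had a PSI of 85.8, 81.1 and 83.7 in EPI and 7.12 and 8.76 in MES, with 4442 reads per library (∆PSI -75.6, adjusted p = 1.97e-203). SLC37A2, a sugar-phosphate transporter, used the exon at chr11:124956100-124956156 at 98.2, 97.3 and 100 in EPI and 24.8 and 23.9 in MES (∆PSI -74.2). In both genes the form that dominated EPI cells was the minor form in both MES libraries. USO1, a tether of transport vesicles at the Golgi, went from 75.8, 65.0 and 74.6 to 5.09 and 3.83 for the 21-nt exon at chr4:76716489-76716509 (∆PSI -67.3). RALGPS2, a Ral exchange factor, went from 79.9, 90.4 and 91.0 to 23.7 and 28.1 at chr1:178861365-178861442 (∆PSI -61.2).

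Other large losses rested on fewer reads than those above. The gains named above ran from 43.2 (MAGI1) to 342 (SPAG9) reads per library. The chromatin reader BRD9 had 20.8 reads per library at chr5:868722-869234 and gave 78.9, 100 and 88.9 against 46.7 and 5.26 (∆PSI -63.3, adjusted p = 0.0223). The SIGIRR exon at chr11:406843-406993, in a receptor that dampens interleukin-1 signaling, had 21.4 reads per library and gave 100 in all 3 EPI libraries and 25 and 55.9 in MES (∆PSI -59.5). AFMID, a kynurenine pathway enzyme, gave 94.0, 80.7 and 75.3 against 21.2 and 22.7 at chr17:76200737-76200822 (∆PSI -61.4). The MES values of BRD9 and SIGIRR spread widely. The call of BRD9 was lost without the second EPI or second MES library (adjusted p up to 0.762), that of SIGIRR without the third EPI or first MES library (up to 0.161), and that of AFMID without the first MES library (0.160).

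**Figure D2:**
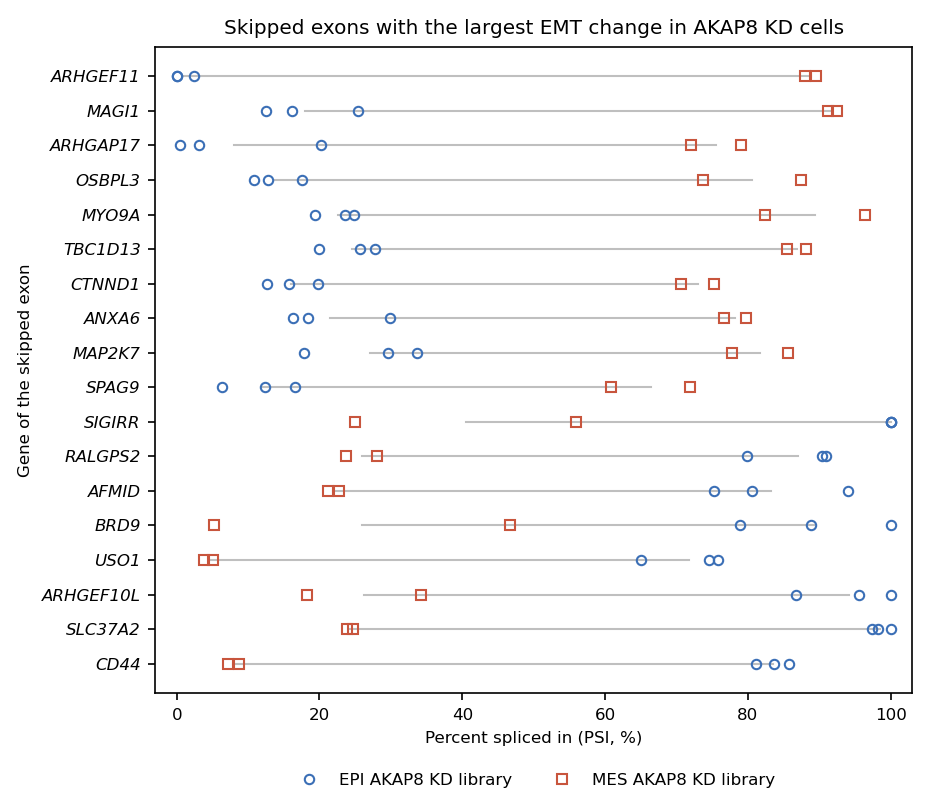
PSI in percent of the skipped exons named for the largest gain or loss in MES, at most 1 per gene. Circles are EPI and squares MES libraries, and a grey line joins the means. The exons run from ARHGEF11 (∆PSI 88.0) to CD44 (∆PSI -75.6), and only exons without overlap between the states could be named.

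CD44 held more called exons than any other gene, with 13 of its 55 SE events called, which covered 6 distinct variable exons and were all lower in MES. In its most read called event, exon v8 at chr11:35229652-35229753 had 31.4, 32.1 and 35.7 in EPI and 0.55 and 1.05 in MES (∆PSI -32.3, 1739 reads per library). Exon v9 at chr11:35231512-35231601 went from 99.2, 94.5 and 97.4 to 46.0 and 56.8 (∆PSI -45.6). Exon v3 at chr11:35219668-35219793 went from 78.7, 66.1 and 72.6 to 2.68 and 3.82 (∆PSI -69.2). PSI is relative to the neighbouring exons an event is tested with, and with other neighbours the same exons changed little. The most read event of v8 (3018 reads per library) had 99.1, 98.4 and 98.9 in EPI and 96.4 and 98.4 in MES (∆PSI -1.42, not called). The most read events of v3, v9 and v10 were not called either, with ∆PSI of 6.57, -0.87 and -2.37. The called events overlap and share reads. The junction reads summed over all SE events of the gene fell by 1.65 on the log2 scale. That sum counts the events of the variable exons themselves, so splicing and transcript level cannot be told apart in it. Among other genes with several called exons, CTNND1 had 3 that all rose, FASTK, MRPL55, PLD3 and VEGFA had 3 overlapping forms each that all fell, and SEC31A had 4 with 2 in each direction.

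FGFR2 is the textbook receptor switch of EMT, in which epithelial cells use exon IIIb and mesenchymal cells exon IIIc. As mutually exclusive exons at chr10:123276833-123276977 and chr10:123278196-123278343 (minus strand), the share of the IIIb form was 96.4, 100 and 100 in EPI and 60 and 34.5 in MES (∆PSI -51.5, adjusted p = 0.00146). Both MES libraries lay below every EPI library but far apart from each other. Reads per library ran from 5 to 110, and the junction reads of FGFR2 fell by 2.47 on the log2 scale. The call was lost without the second MES library (adjusted p = 0.722). Exon IIIc tested as a skipped exon was 0 in the first MES library and 47.4 in the second, against 0 to 3.45 in EPI.

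Exons were then grouped by what their genes do, using gene lists made with earlier results of these data known, so that their counts are descriptions. The median absolute ∆PSI of all SE events tested was 0.854 points, and 1.34% were called. Among 27 genes of cell junctions and polarity, 14 of 112 SE events were called (12.5%, 12 up and 2 down) with a median absolute ∆PSI over the list of 1.02 points. These 14 events covered only 9 distinct exons in 6 genes, since 1 exon can be tested with several neighbours. The polarity scaffold SCRIB had 10.5, 11.3 and 15.4 in EPI and 70.3 and 62.6 in MES for its 63-nt exon (∆PSI 54.1). CTNND1, p120-catenin, which stabilises cadherins, had 19.8, 15.7 and 12.6 against 70.6 and 75.3 for the 289-nt exon at chr11:57558857-57559145 (∆PSI 56.9). An alternative 5' splice site of CTNND1 at chr11:57529269-57529591 moved the other way, from 92.4, 96.8 and 97.5 to 26.4 and 35.4 (∆PSI -64.7). The ERBB2IP exon (∆PSI -24.4) lost its call without the first MES library (adjusted p = 0.0871), and the DLG1 exon (∆PSI 26.2) lost it without the third EPI or either MES library (up to 0.448). PARD3, a partner in polarity complexes, had 1 exon that rose (20.2) and 1 that fell (-17.4).

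Actin regulators were the largest list, with 23 of 281 SE events called (8.19%, 12 up and 11 down) and a median over the list of 0.61 points. ENAH, which promotes actin filament growth, lost its 63-nt exon from 46.7, 48.3 and 50.8 in EPI to 3.04 and 3.99 in MES (∆PSI -45.1). ARHGEF10L, a GTPase exchange factor, lost a 15-nt exon from 95.5, 86.8 and 100 to 18.3 and 34.3 (∆PSI -67.8). Spectrin (SPTAN1) went from 92.1, 83.3 and 86.1 to 53.9 and 46.6 (∆PSI -36.9). Smaller gains with tight replicates were found in the myosin light chain MYL6 (∆PSI 14.6, 7490 reads per library) and in filamin A (FLNA, ∆PSI 12).

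In membrane trafficking 23 of 277 SE events were called (8.30%, 11 up and 12 down), with a median over the list of 0.86 points. Dynamin 2 (DNM2), the GTPase that cuts vesicles from the membrane, lost a 12-nt exon from 85.9, 88.8 and 86.7 to 29.4 and 33.7 (∆PSI -55.6). DNM1L, its relative for mitochondrial division, lost a 33-nt exon from 77.0, 69.5 and 78.3 to 31.3 and 28.6 (∆PSI -45.0). VPS39, a tether of late endosomes, went from 38.4, 41.7 and 36.9 to 3.22 and 3.03 (∆PSI -35.9). The endocytic adaptor NUMB lost a 144-nt exon from 56.0, 40.4 and 45.7 to 18.2 and 19.1 (∆PSI -28.7). Adaptor subunit AP1B1 gained a 9-nt exon from 0, 1.43 and 1.79 to 36.8 and 33.8 (∆PSI 34.2), and VPS29 of the retromer a 12-nt exon from 18.5, 13.6 and 19.5 to 53.5 and 49.2 (∆PSI 34.1).

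CLSTN1, a calsyntenin that links cargo to kinesin, is the exon the study followed as an AKAP8 target. The 57-nt coding exon at chr1:9797556-9797612 had a PSI of 60.2, 58.7 and 54.8 in EPI KD and 96.1 and 94.8 in MES KD (∆PSI 37.5, adjusted p = 1.04e-33, 1429 reads per library). In control cells it was 34.4, 34.3 and 30.4 in EPI and 94.7, 94.2 and 94.5 in MES, a ∆PSI of 61.4. All 3 EPI KD libraries lay above the EPI control libraries, and the MES libraries of both kinds lay between 94.2 and 96.1. The test of the difference between both changes was an interaction on the logit (log-odds) scale, not on PSI points. This limma-moderated test gave an adjusted p of 0.659. A 30-nt exon of the same gene at chr1:9816539-9816568 went from 13.0, 13.9 and 13.7 to 42.7 and 32.1 (∆PSI 23.9). The junction reads of CLSTN1 did not pass the test (log2 change 0.01 ± 0.24 SE, adjusted p = 0.993). No MES library overlapped an EPI library for either exon.

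Receptors and matrix genes had 18 of 227 SE events called (7.93%, 3 up and 15 down), of which 13 of the 15 losses lay in CD44. The median over the list was 0.87 points. PLOD2, which crosslinks collagen, gained a 63-nt exon from 46.3, 49.4 and 44.2 in EPI to 89.7 and 90.6 in MES (∆PSI 43.5). COL6A3, a collagen VI chain, had 63.6, 20.5 and 21.7 against 75.8 and 80.7 (∆PSI 42.9), with 1 EPI library close to the MES values. The integrin ITGA6, which anchors epithelial cells to laminin, lost its 130-nt exon from 96.7, 98.5 and 97.7 to 81.2 and 82.2 (∆PSI -15.9).

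Among kinases 9 of 153 SE events were called (5.88%, 5 up and 4 down; median over the list 0.92 points). SLK, a kinase of adhesion turnover, lost a 93-nt exon from 49.2, 57.1 and 45.5 to 1.81 and 2.41 (∆PSI -48.5). MARK3, a polarity kinase, gained a 27-nt exon from 24.7, 13.7 and 15.5 to 62.2 and 60.6 (∆PSI 43.4), and casein kinase CSNK1G3 a 24-nt exon from 14.5, 20.2 and 18.2 to 55.0 and 45.0 (∆PSI 32.3). MINK1 went from 100, 98.1 and 100 to 66.7 and 62.4 (∆PSI -34.8). MAP3K7, the TGF-beta-activated kinase, lost an 81-nt exon from 17.7, 22.2 and 21.3 to 3.46 and 3.44 (∆PSI -17.0).

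Nuclear and RNA-binding genes had the lowest share, 8 of 200 SE events (4%, 5 up and 3 down; median over the list 0.80 points). TEAD1, a DNA-binding partner of YAP, gained a 12-nt exon from 3.69, 0 and 6.98 to 51.7 and 54.4 (∆PSI 49.5). NFYA, a CCAAT-box factor, gained an 87-nt exon from 35.3, 22.7 and 23.4 to 75.7 and 80.8 (∆PSI 51.1). The splicing factor MBNL1 lost a 54-nt exon from 62.3, 72.4 and 61.7 to 26.6 and 34.3 (∆PSI -35.1) and gained a 36-nt exon from 45.4, 44 and 44.7 to 74.0 and 72.2 (∆PSI 28.4). TCF7L2, a nuclear partner of beta-catenin, switched between mutually exclusive exons from 33.0, 11.3 and 0 to 90.7 and 74.2 (∆PSI 67.7). That call was lost without the third EPI or the first MES library (adjusted p up to 0.0807). The MTA1 exon (∆PSI 26.3) lost its call without the second EPI or first MES library (adjusted p up to 0.303). No SE event of AKAP8, HNRNPM, ESRP1, ESRP2, QKI, RBFOX2 or PTBP1 was called by this test, and 1 retained intron of HNRNPM was (∆PSI of 11.3 points in size).

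Microtubule motors and plakins had 7 of 93 SE events called (7.53%, 2 up and 5 down; median over the list 0.90 points). DST, a plakin of hemidesmosomes, lost an 18-nt exon from 96.4, 100 and 96.0 to 44.5 and 58.3 (∆PSI -46.1), against -17.7 in control cells (adjusted p of the difference 0.268). The kinesin KIF21A had 27.5, 40.9 and 23.1 against 63.4 and 76.9 (∆PSI 39.6) and KIF13A had 54.5, 46.8 and 54.5 against 18.9 and 15.4 (∆PSI -34.8). Both kinesin calls were lost without the second MES library, KIF21A also without the third EPI library (adjusted p up to 0.489 and 0.0961). Plectin (PLEC) lost part of a 3381-nt exon, from 96.5, 92.1 and 95.4 to 61.0 and 78.4 (∆PSI -25.0).

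Several of the strongest switches were very short exons, so their sequences are given. Of 404 called exons 24 had 27 nt or less (5.94%), against 301 of 26448 exons tested (1.14%) and 1.83% of exons that were alternative in these cells but not called. A length that is a multiple of 3 was found in 265 of 404 called exons (65.6%), against 44.2% of all tested and 48.5% of uncalled alternative exons. These are shares without a test, since exons were called by PSI and their lengths are not replicates. Each line is in transcript direction with the exon in capitals and 25 intron bases on either side in lower case (GRCh37). DNM2, ARHGEF10L, DST and USO1 were lost in MES and TEAD1, ANXA6 and KIF21A gained. The 18-nt exon of ANXA6, a membrane-binding annexin, went from 29.9, 18.4 and 16.3 to 76.6 and 79.8 (∆PSI 56.7).
DNM2 chr19:10919220-10919281, plus strand: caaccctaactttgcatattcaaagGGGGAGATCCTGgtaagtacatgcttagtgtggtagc
ARHGEF10L chr1:17961018-17961082, plus strand: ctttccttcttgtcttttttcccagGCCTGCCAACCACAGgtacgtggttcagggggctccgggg
DST chr6:56333755-56333822, minus strand: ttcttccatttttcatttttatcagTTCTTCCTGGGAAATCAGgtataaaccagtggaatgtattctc
USO1 chr4:76716464-76716534, plus strand: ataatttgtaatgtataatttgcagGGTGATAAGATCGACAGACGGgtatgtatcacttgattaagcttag
TEAD1 chr11:12900411-12900472, plus strand: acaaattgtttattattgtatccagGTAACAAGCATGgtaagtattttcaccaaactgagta
ANXA6 chr5:150490163-150490230, minus strand: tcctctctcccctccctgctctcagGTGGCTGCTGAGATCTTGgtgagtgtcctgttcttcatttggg
KIF21A chr12:39724019-39724089, minus strand: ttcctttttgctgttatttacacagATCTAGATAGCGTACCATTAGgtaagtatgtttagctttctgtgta

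The introns beside called exons were searched, on the transcript strand, within 250 bases for motifs of known EMT splicing factors. The RBFOX motif TGCATG lay in the downstream intron of 41 of 188 exons gained in MES (21.8%), 22 of 216 lost (10.2%) and 7.13% of all exons tested. In the upstream intron the shares were 12.8%, 17.6% and 6.77%. The ESRP-type motif GGTGG was downstream of 48 gained exons (25.5%), 95 lost exons (44%) and 30.7% of all, and upstream of 28.2%, 32.9% and 26.8%. It lies within GTGGTGG, the motif searched for hnRNPM. That was found downstream of 5.85%, 8.80% and 4.74%, and upstream of 6.38%, 4.17% and 3.63%. The QKI motif ACTAA was downstream of 21.8% of gained, 21.8% of lost and 17.3% of all exons, and upstream of 13.8%, 19.9% and 17.2%. GGG flanked by A or T, searched for AKAP8, was downstream of 58.0%, 73.1% and 70.4%, and upstream of 65.4%, 66.2% and 67.3%. A match gives letters within a window, not a bound site. Lost exons also lay between shorter introns, with medians of 1188.5 bases upstream and 1315 downstream, against 2163 and 2290 for gained exons and 2406 and 2150.5 for all.

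Examples of TGCATG beside strong switches show its position, with the motif in capitals and each line in transcript direction. The motif began 26 bases after the MAGI1 exon, 49 after the OSBPL3 exon and 31 after the NFYA exon, all gained in MES. It ended 15 bases before the SLK exon and 22 before the DNM1L exon, both lost.
MAGI1 chr3:65433651-65433686, minus strand: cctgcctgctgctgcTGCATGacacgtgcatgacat
OSBPL3 chr7:24902750-24902785, minus strand: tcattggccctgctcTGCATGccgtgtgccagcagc
NFYA chr6:41048652-41048687, plus strand: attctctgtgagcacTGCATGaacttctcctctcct
SLK chr10:105770539-105770573, plus strand: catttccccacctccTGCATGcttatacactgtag
DNM1L chr12:32891156-32891191, plus strand: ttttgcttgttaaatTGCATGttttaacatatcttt
The order was not general. SLC37A2, lost in MES, carried the motif 50 bases after its exon, and ARHGAP17, gained, carried it upstream.

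**Figure D3:**
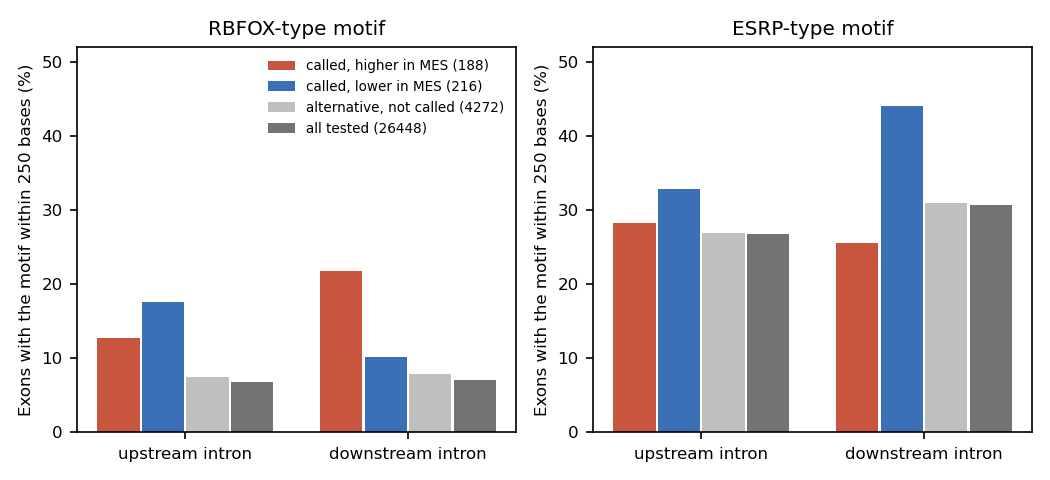
Share of exons, in percent, with TGCATG (left) or GGTGG (right) within 250 bases of the exon in the upstream and downstream intron. Bars are exons gained in MES (188), lost in MES (216), alternative but not called (4272) and all tested (26448). TGCATG stands at 21.8% downstream of gained exons and GGTGG at 44% downstream of lost exons.

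AKAP8 binding by eCLIP, a crosslinking assay, was set beside the same exons. These peaks come from separate HMLE/Twist-ER samples for which the paper names no AKAP8 shRNA, not from the KD libraries. A peak of the EPI state lay within 1000 bases of 22 of 404 called exons (5.45%). The share was 3.58% for uncalled alternative exons and 3.04% for all exons tested. MES peaks lay near 15 called exons (3.71%), 2.46% of uncalled alternative exons and 1.87% of all. No called exon held a peak within itself, and of all exons tested only 0.09% held an EPI peak and 0.06% a MES peak. The CLSTN1 exon had 1 EPI peak nearby (log2 enrichment 2.26) and MTA1 had 4 EPI and 14 MES peaks.

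The other kinds of splicing events gave fewer calls. Of 5292 mutually exclusive exon (MXE) events 37 were called (0.699%, 19 up and 18 down). Of 1430 alternative 5' splice site (A5SS) events 39 were called (2.73%, 13 up and 26 down) and of 2254 alternative 3' splice site (A3SS) events 31 (1.38%, 4 up and 27 down). GALNT7, a glycosyltransferase, switched its MXE from 2.19, 0.95 and 1.19 to 30.3 and 33.6 (∆PSI 30.5), and CD44 had 1 MXE up (40.6) and 1 down (-46.1). For DCUN1D4 (-37.9) the call was lost without the third EPI or first MES library (adjusted p up to 0.0948). SMARCB1, a subunit of the SWI/SNF complex, had 28.9, 17.5 and 21.4 against 50.7 and 49.9 for the long form of an A5SS (∆PSI 27.7). WSB1, a ubiquitin ligase subunit, went from 86.3, 91.1 and 93.4 to 42.3 and 47.3 at an A3SS (∆PSI -45.4), and KANSL3 of a histone acetylation complex from 51.9, 69.5 and 72.2 to 26.9 and 30.1 (∆PSI -36.0). The other A5SS events named by size, CTNND1 (26.4), PTGES2 (23.0), INPP4A (-30.9) and PCNT (-30.6), lost their calls in part of the leave-outs. Without either MES library those of CTNND1 (adjusted p up to 0.224) and PTGES2 (0.313) were lost, without the second MES library that of INPP4A (0.584), and without the second EPI, the third EPI or first MES library that of PCNT (0.460). Of the A3SS events, PLPPR2 (19.6) was lost without the first EPI, the third EPI or first MES library (adjusted p up to 0.565) and APTX (18.6) without the third EPI or second MES library (0.578). ARID1A (19.2) was lost without any library but the first EPI one (up to 0.511), and ALS2CL (-36.1) without the third EPI or either MES library (0.165).

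Of 1660 retained introns (RI) 20 were called (1.2%), 4 with more retention in MES and 16 with less. SHMT2, a mitochondrial enzyme of serine and glycine metabolism, went from 62.1, 70.5 and 85.7 to 19.3 and 25.7 (∆PSI -50.3) and stayed called when any 1 library was left out. The RNA-binding protein RBM5 went from 44.3, 68.6 and 53.1 to 16.4 and 23.3 (∆PSI -35.5), and AHSA2 changed by -32.7. ISCU, an iron-sulfur cluster scaffold, rose from 45.7, 20.0 and 41.5 to 70.2 and 66.8 (∆PSI 32.8), NUDT22 by 32.1 and TMEM138 by 23.3. Without the first MES library all of these but SHMT2 lost the call. ISCU and AHSA2 lost it also without the third EPI or second MES library and NUDT22 without the first EPI or second MES library (adjusted p up to 0.488 for ISCU, 0.435 for NUDT22, 0.426 for AHSA2, 0.216 for RBM5 and 0.206 for TMEM138). Retention also moved between libraries of one state. The median PSI over all introns tested was 11.7, 7.12 and 13.8 in EPI and 7.76 and 7.79 in MES, so that the second EPI library lay below both MES libraries. Control cells had 11.1, 8.66 and 13.7 in EPI and 8.64, 8.52 and 12.4 in MES. Without the second EPI library 130 introns were called, and without the first MES library 3. The part of these library levels in the calls was not tested.

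**Figure D4:**
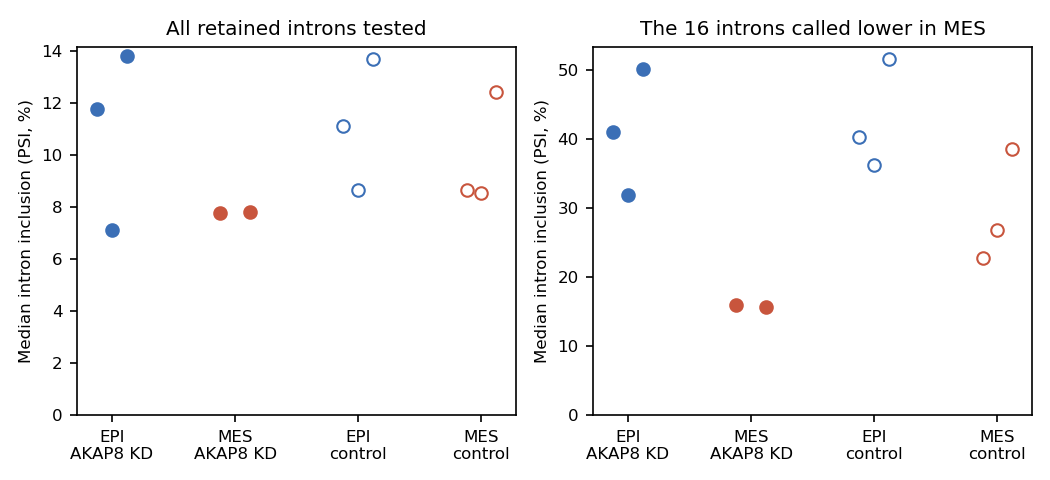
Median intron inclusion in percent per library over all introns tested (left) and over the 16 called lower in MES KD cells (right). Filled circles are KD and open circles control libraries, EPI blue and MES red. On the left the second EPI KD library (7.12) lies below both MES KD libraries. On the right the MES KD libraries stand at 15.9 and 15.7 and the EPI KD libraries at 31.8 to 50.1, where the introns were chosen for that difference.

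How did the EMT change in KD cells stand to that in control cells? The contrasts share no library, and 29898 SE events were tested in both. Of these 419 were called in KD cells and 694 in control cells (of 30170 events tested in control cells in all, 703 were called, 2.33%), and 295 in both, which is 70.4% of the KD list and 42.5% of the control list. All 295 moved in the same direction. Of the 419 KD events 413 moved in the same direction in control cells (98.6%), with Pearson r = 0.948 and a Spearman correlation of 0.934 across events. Events of 1 gene share reads, so this is a description. The median size of these events was 24.3 points in KD and 19.3 in control cells, while the 694 control events had 16.4 in KD and 21.3 in control cells. Each list is larger in the contrast that chose it. Among the 295 called in both, medians were 26.4 and 25 points, with the control change larger in 131. ARHGEF11 changed by 88.0 in KD and 90.8 in control cells, CD44 v10 by -75.6 and -75.2, CTNND1 by 56.9 and 57.8 and SPAG9 by 54.6 and 54.9.

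The KD-only calls mostly moved in the same direction in control cells. Their smaller change there cannot show an effect of the KD, since they were chosen for a call in KD and none in control cells. The reverse held for the 399 events called in control cells only. Their medians were 11.5 points in KD and 19.2 in control cells, and 378 had the same direction. The 124 events called in KD and not in control cells had medians of 20.5 and 9.06 points, and 118 had the same direction. The 6 that did not lay in FUK, ZNF692, XDH, GUK1, IP6K1 and IL1R1, of which GUK1, a guanylate kinase, had -13.9 in KD and 6.61 in control cells (adjusted p of the difference 0.171). SLC25A16, a mitochondrial carrier, changed by -40.7 in KD and -5.83 in control cells (adjusted p of the difference 0.281). MINK1 changed by -34.8 and -14.8. A formal test of the difference between the changes, on the logit scale over 11 libraries, called 3 of 30134 events (0.00996%). At an unadjusted p below 0.05 lay 47 of the KD calls (11.2%) and 7.44% of all events. The KD calls were chosen with the same KD libraries that enter this test, so these shares cannot show an effect of the KD. The events called by this test lay in SNHG8, PCBP4 and ZFAS1. None of them was among the 423 events called for the EMT change in KD cells.

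**Figure D5:**
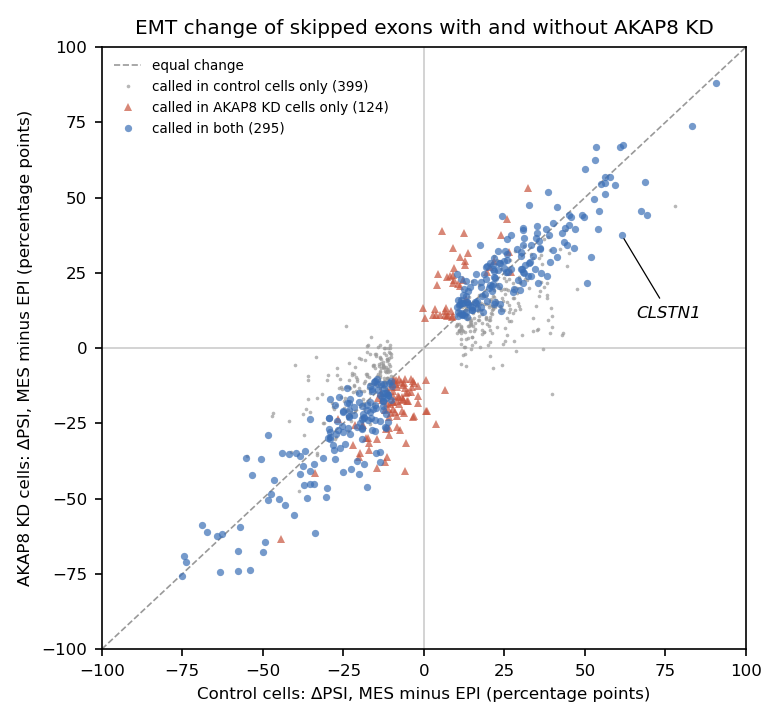
∆PSI (MES minus EPI, percentage points) of SE events called in either contrast, control cells on the x axis and AKAP8 KD cells on the y axis. Blue circles were called in both (295), red triangles in KD cells only (124) and grey points in control cells only (399), and the dashed line marks equal change. All 295 events called in both lie in the 2 quadrants of equal sign, and CLSTN1 lies at 61.4 and 37.5.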

How the data were processed

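RNA-seq was made from total RNA as stranded, paired-end poly(A) libraries. Per the submitters' processing notes the authors used STAR, featureCounts 1.5.0 and DESeq2 with GRCh37, and rMATS junction reads were deposited as lists of libraries that carry no names, so that libraries are numbered here by their place in a list. Per the file headers the deposited AKAP8 eCLIP peaks hold a log2 enrichment and a -log10 p per peak, made by the authors. The deposited gene table held only the authors' own comparisons and was not used, nor were 30 columns of per-sample PSI.

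Reads of KD cells were joined between tables by identical coordinates, strand and type, and PSI was computed from reads and form lengths. Events needed a mean of 20 reads per library and at least 1 in each. EMT change was tested with a quasi-binomial model with dispersion moderated by limma 3.58.1 (R 4.3.3) and Benjamini-Hochberg adjustment per event type. For most events the dispersion equalled its trend on the reads of the rarer form, which gives deep exons very small p-values. Genes were tested with limma on log2(scaled junction reads + 1), for genes with at least 10 in 2 libraries and a change over 1. The difference between KD and control changes was tested as an interaction on the logit scale over all 11 libraries. It is not a test of the difference in PSI points. Peaks needed a log2 enrichment of 2 and a -log10 p of 3. Scripts were tested on simulated data. Exon annotation came from a Gencode release newer than the authors' annotation. P-values of most splicing events therefore rest on read depth and a dispersion trend shared across events, not on the event's own spread. The spread between libraries, in these and in the gene tests, may be technical.

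Named exons were the 10 SE and the 3 of each other type with the largest change in each direction without overlap, 1 per gene for SE, up to 5 per gene list, and AKAP8, CD44, CLSTN1, FGFR2 and the splicing factors whatever their values. Smaller changes named beside these (MYL6, NUMB, MAP3K7 and the like) were chosen after their values were seen. Some exons that met this rule are not reported here. The members and lists were chosen with earlier results of these data known. Alternatives covered the dispersion, read and ∆PSI thresholds, summed reads, limma on logit PSI, a replicate block and leaving out each library.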

Additional observations from a re-analysis of the deposited data

Results flagged for a closer look

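For 3 skipped exons the EMT change differed between KD and control cells by the test of the difference. It was a limma-moderated quasi-binomial interaction on the logit scale with Benjamini-Hochberg adjustment. The exon of SNHG8, a host gene of small nucleolar RNAs, at chr4:119200099-119200292 had a PSI of 43.9, 54.5 and 41.6 in EPI KD and 32.6 and 39.3 in MES KD libraries. Control libraries had 76.7, 69.6 and 63.2 in EPI and 32.4, 32.0 and 37.4 in MES. The change in KD minus that in control cells was 25.1 points (adjusted p = 0.00213). The call was lost without the first EPI control (0.337), the third EPI KD (0.121) or second MES KD library (0.238).

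PCBP4, a poly(C)-binding protein, had 21.1, 57.4 and 47.4 in EPI KD and 40.6 and 12.5 in MES KD libraries at chr3:51995957-51996104. Control libraries had 13.9, 22.6 and 18.2 in EPI and 33.3, 67.8 and 73.0 in MES, so that the difference was -55.2 points (adjusted p = 0.0145). The KD states overlapped, with 62.6 reads per library, and 6 of 11 leave-outs lost the call (up to 0.810). ZFAS1, another small nucleolar RNA host, had 87.9, 83.5 and 81.2 against 92.4 and 93.2 in KD libraries at chr20:47897022-47897107. Control libraries had 90.5, 91.0 and 88.1 against 89.6, 86.1 and 88.2, a difference of 10.6 points (adjusted p = 0.0429), lost in 8 of 11 leave-outs (up to 0.468). With limma on logit PSI none of the 3 was called (adjusted p = 0.936 for each). With the dispersion trend on all reads SNHG8 and PCBP4 were not called (0.822 for both), and ZFAS1 was not called with a trend that was not robust (0.0617) or with the replicate block (0.0737).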

How the results depend on the processing

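The number of calls depended on the test and on single libraries. A ∆PSI threshold of 20 points left 279 SE, 15 MXE, 11 RI, 17 A5SS and 12 A3SS events, and none at all gave 650 SE, 58 MXE and 48 A3SS. Limma on logit PSI called 0 SE (750 at an unadjusted p below 0.05), 8 MXE, 0 RI (88), 0 A5SS (66), 0 A3SS (63) and 0 differences from control cells (289). A dispersion trend on all reads gave 47 A3SS. Leaving out each library in turn gave 203 to 471 SE, 16 to 47 MXE, 3 to 130 RI, 17 to 53 A5SS and 8 to 37 A3SS events, 0 to 7 differences from control cells and 304 to 1396 genes. The lowest SE, RI, A3SS and gene counts came without the first MES library, where the lone MES library was taken to vary like EPI libraries, and the highest RI and gene counts without the second EPI library. Other settings stayed within 1.5 times of each count. Of 65 named exons 40 kept the call in every leave-out, and none of 451 alternative values turned its direction. Exons named for the largest change were chosen without overlap between the states, so leaving out a library could not turn them. Limma kept 3 of the 65.

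With the place in the list as a replicate block, 0 SE (760 at an unadjusted p below 0.05), 1 MXE, 0 RI (79), 0 A5SS (77) and 13 A3SS events, 3 differences from control cells (SNHG8 and PCBP4 among them, ZFAS1 not) and 784 genes were called. Place did not pair the libraries, with correlations of their deviations of -0.011 to 0.011 for logit PSI and -0.22 to 0.22 for gene values. The cause of these shifts was not tested.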

Other observations

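Some called exons of genes outside the lists, chosen after their values were seen, had deep coverage or several forms. RPS24, a ribosomal protein, included its 22-nt exon at 16.6, 20.0 and 16.8 in EPI and 47.7 and 44.3 in MES KD libraries (∆PSI 28.2, 6772 reads per library). An exon of VEGFA, the vascular growth factor, in its 72-nt form at chr6:43748469-43748540 went from 48.2, 65.4 and 49.5 to 23.6 and 17.3 (∆PSI -34.0). PLD3, a lysosomal nuclease, went from 92.9, 90.3 and 87.2 to 67.0 and 64.1 at chr19:40871460-40871837 (∆PSI -24.6). The PLD3 change in control cells was -11.2. BIN1, which bends membranes, went from 22.2, 10 and 25.7 to 70.0 and 56.2 at chr2:127815049-127815177 (∆PSI 43.8, adjusted p = 0.0302 by the limma-moderated quasi-binomial test). None of these exons overlapped between states.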
